A study of Mus musculus with 4 samples.

Results

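The non-fibrillar collagens are the collagen genes whose products do not build the cross-striated fibrils of collagens I, II, III, V, XI, XXIV and XXVII. They were taken from the gene list of the single-cell files as every symbol of the form Col, number, a, number, less the 11 fibrillar chains, which left 33 of 44 collagen genes. The files list 32285 genes in the single-cell libraries and 19465 in the spatial sections. By the structure of their products the 33 genes fall into 9 network collagens (types IV, VIII and X), 6 beaded filament collagens (type VI), 9 fibril-associated collagens with interrupted triple helices (FACIT; types IX, XII, XIV, XVI, XIX, XX and XXII), 1 anchoring fibril collagen (type VII), 4 transmembrane collagens (types XIII, XVII, XXIII and XXV), 2 multiplexins (types XV and XVIII) and 2 others (types XXVI and XXVIII).

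Collagen IV is assembled from 3 chains into the sheet that carries laminins, nidogens and perlecan in every basement membrane, including those under endothelium, around pericytes and Schwann cells and below the epidermis. Collagen VI forms beaded filaments between cells and the interstitial matrix, and the FACIT collagens sit on the surface of fibrils, collagen IX on the collagen II fibrils of cartilage and collagens XII and XIV on the collagen I fibrils of tendon and dermis. Collagen VII anchors the epidermal basement membrane to the dermis, collagen XVII is a hemidesmosome component that spans the keratinocyte membrane, and collagens XV and XVIII are basement membrane collagens that carry glycosaminoglycan chains.

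Tissue from the tenotomy site was collected 7 days after burn/tenotomy (BT), a mouse injury that combines a dorsal burn with cutting of the Achilles tendon and leads to heterotopic ossification. Both single-cell RNA sequencing (scRNA-seq) libraries came from mice labelled Hoxa11CreER;ROSA-LSL-TdTomato;Hif1a fl/fl, given tamoxifen at 75 mg/kg for 5 days before injury. Replicates 1 and 2 were pooled into one library, called the pooled library here, and replicate 3 was a library of its own. Whether the mice carried Cre is not in the labels, the Hoxa11-driven Cre acts only in cells of the lower limb lineage that express Hoxa11, and the cells were not sorted for the reporter, so each library can mix recombined and unrecombined cells. Cre-negative littermates were not analysed here, and no comparison of genotypes was made. Visium sections A1 and B1 came from wild-type male C57BL/6 mice aged 10 weeks, and the labels do not say whether they are from separate mice. With 1 pooled and 1 single library, and 2 sections, the p-values measure the spread between these samples only.

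Col4a1 and Col4a2 are shown first by their promoters, because the results on blood vessels turn on them and because they share a start region. Col4a1 lies on the minus strand of chromosome 8 at 11198423 to 11312826, and Col4a2 on the plus strand at 11312805 to 11449287 (GRCm38, the mm10 build of the files), so that the annotated 5′ ends overlap by 22 bases. The RefSeq promoter windows of GRCm38.p6, 250 bases before to 50 bases after the start, are printed 5′ to 3′ on the strand of each gene, with capitals marking the GC box GGGCGG and the CCAAT box on either strand.
Col4a1: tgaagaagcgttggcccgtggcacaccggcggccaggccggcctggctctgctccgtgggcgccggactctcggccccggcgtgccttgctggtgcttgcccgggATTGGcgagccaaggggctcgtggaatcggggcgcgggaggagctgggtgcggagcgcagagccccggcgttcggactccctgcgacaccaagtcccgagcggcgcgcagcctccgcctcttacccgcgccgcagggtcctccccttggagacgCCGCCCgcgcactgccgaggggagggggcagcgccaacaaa
Col4a2: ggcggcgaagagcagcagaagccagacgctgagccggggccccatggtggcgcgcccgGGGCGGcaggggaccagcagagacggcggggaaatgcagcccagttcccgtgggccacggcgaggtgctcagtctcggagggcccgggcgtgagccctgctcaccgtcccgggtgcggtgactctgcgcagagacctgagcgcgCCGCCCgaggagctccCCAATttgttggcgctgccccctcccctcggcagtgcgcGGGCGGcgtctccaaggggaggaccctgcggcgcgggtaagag
The windows are chr8:11312777-11313076 for Col4a1 and chr8:11312555-11312854 for Col4a2, so both hold the bases between the starts. The Col4a1 window has 1 GC box and 1 CCAAT box, the Col4a2 window has 3 GC boxes and 1 CCAAT box, and neither has the letters TATAAA. Of the 32851 RefSeq promoter windows 35.7% hold GGGCGG, 37.4% CCAAT and 13.6% TATAAA, on either strand. A CCAAT box on the minus strand can share bases with a GC box, which none of those marked above does. Of 30 windows found for 27 of the 33 genes, 17, 10 and 3 hold these motifs, which describes the letters only. Close neighbours also occur elsewhere in the family. Col4a3 and Col4a4 are 71 bases apart on chromosome 1, Col4a5 and Col4a6 are 1308 bases apart on the X chromosome, and Col6a4, Col6a5 and Col6a6 lie in tandem on chromosome 9.

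After filtering, 1276 and 795 cells of the pooled library and replicate 3 remained, with medians of 13144 and 17213 unique molecular identifiers (UMIs) per cell, and 3504 and 3185 spots of A1 and B1, with medians of 460 and 518 UMIs. Cells were clustered without any collagen gene and named from marker genes, and the 9 classes with at least 20 cells in each library were compared. The class called MPC-like here (mesenchymal progenitor cell, markers such as Scx, Tnmd, Fmod and Postn) held 176 and 147 cells and the fibroblast-like class (markers such as Pi16, Clec3b, Sfrp2 and Prg4) 120 and 91. The smooth muscle or pericyte-like class, called mural-like below, held 96 and 53 cells, the endothelial-like class 97 and 57, the keratinocyte-like class 73 and 55 and the Schwann-like class 30 and 23. The other 3 compared classes were macrophage-like, T or NK-like and dendritic-like cells. Clusters with skeletal muscle markers (20 and 17 cells) and mast cell markers (7 and 14 cells) were too small, and 305 and 162 cells stayed unnamed. Levels are the UMIs of all cells of a class in a library, scaled to the same total for every class (CPM). The assay counts 3′ ends, so a level of one gene is compared between samples and classes and not with the level of another gene. Of the 33 genes 25 had at least 100 UMIs in the cells or in the spots and are described, and 26 passed the filter on low counts for testing in cells and 17 in spots.

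The non-fibrillar collagens together made up 0.532% of all UMIs in the pooled library and 0.551% in replicate 3, against 4.27% and 5.02% for the fibrillar collagens. Their summed level was 9010 and 7896 CPM in MPC-like cells, 9001 and 9460 in mural-like cells, 6098 and 6719 in fibroblast-like cells, 4918 and 4888 in endothelial-like cells and 4202 and 3339 in Schwann-like cells. Keratinocyte-like cells had 479 and 313 CPM, and each of the 3 leukocyte classes had at most 57.0 CPM. The classes differed in how far their collagen was non-fibrillar. Of all collagen UMIs, 95.9% and 96.4% were non-fibrillar in endothelial-like cells, 86.3% and 77.1% in keratinocyte-like cells and 47.0% and 46.8% in mural-like cells. In MPC-like cells the share was 9.52% and 8.52%, and in fibroblast-like cells 7.57% and 7.87%, so the classes richest in fibrillar collagen had the smallest share while their non-fibrillar level was among the highest.

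**Figure D1:**
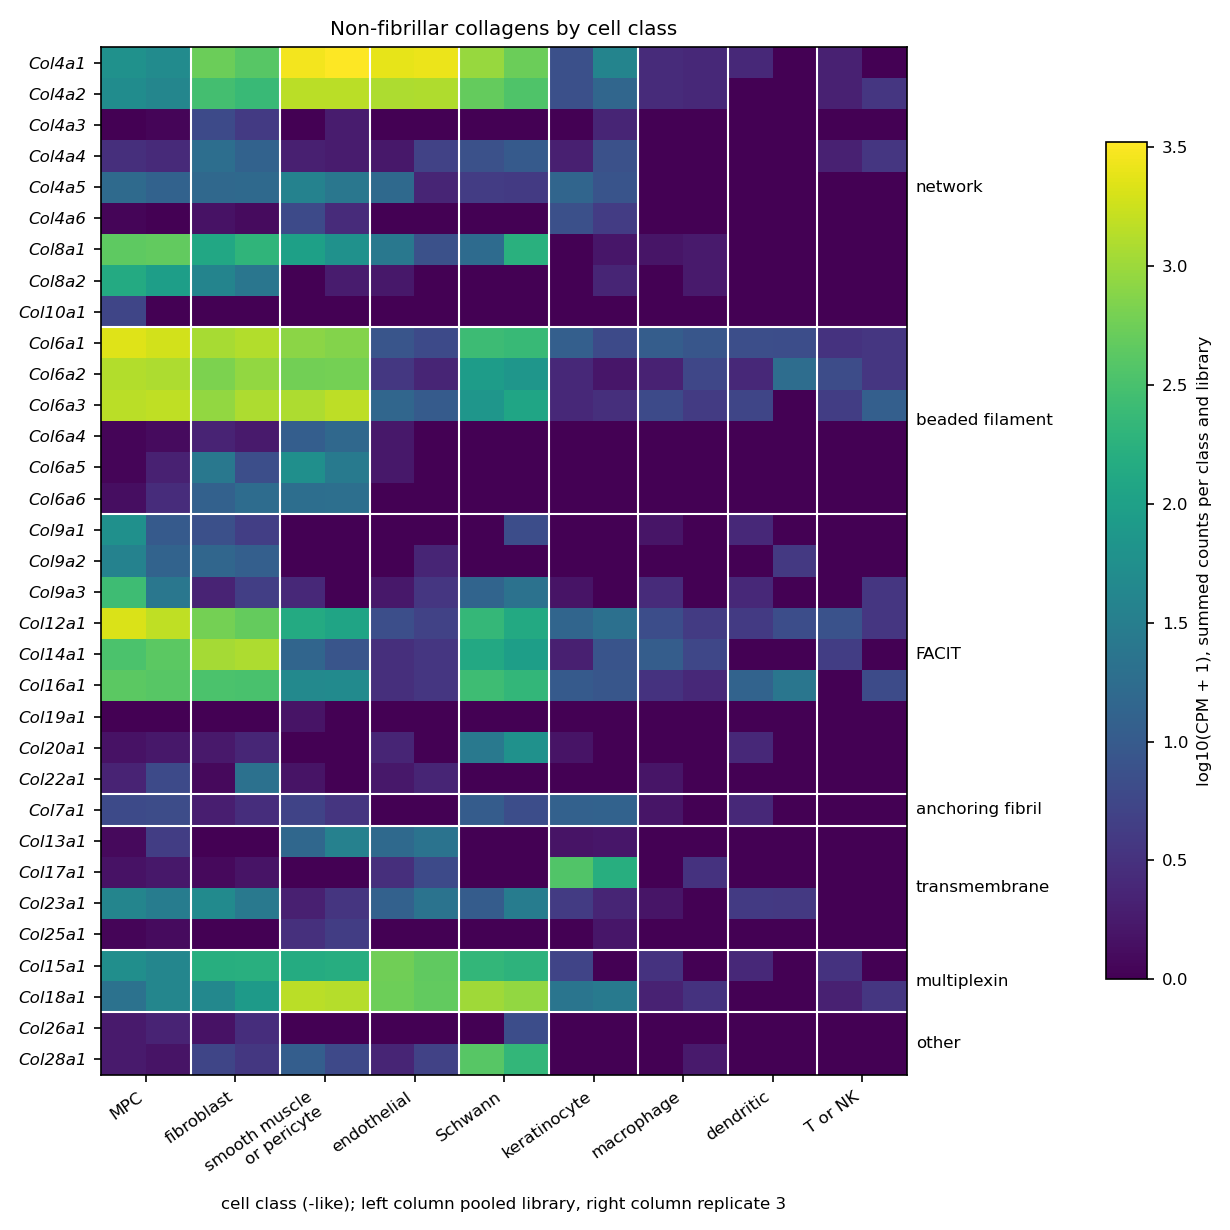
Heatmap of the level of each of the 33 genes (rows, grouped by structural type) in each of the 9 cell classes (columns), as log10 of CPM plus 1, with the pooled library in the left and replicate 3 in the right column of each class. Col4a1, Col4a2 and Col18a1 are bright in endothelial-like, mural-like and Schwann-like cells, the Col6a1 to Col6a3 block and Col12a1 in MPC-like, fibroblast-like and mural-like cells, Col17a1 in keratinocyte-like cells and Col28a1 in Schwann-like cells.

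Among the network collagens, the principal basement membrane chains Col4a1 and Col4a2 were highest in vessel cells. Col4a1 stood at 2889 and 3313 CPM in mural-like cells and at 2465 and 2583 CPM in endothelial-like cells. It was lower in Schwann-like cells, at 947 and 534 CPM, and in fibroblast-like cells, at 530 and 403 CPM. MPC-like cells had 59.0 and 49.1 CPM, keratinocyte-like cells 6.29 and 38.0 CPM, and the order of these 6 classes was the same in both libraries without overlap. Col4a2 followed the same order from mural-like cells, at 1450 CPM in both libraries, to endothelial-like cells, at 1219 and 1278 CPM, and down to MPC-like cells, at 51.2 and 39.7 CPM. Thinned to 2000 UMIs per cell, 87.1% and 90.7% of endothelial-like and 85.4% and 84.9% of mural-like cells kept a Col4a1 UMI, against 40.5% and 34.8% of fibroblast-like and 7.95% and 8.16% of MPC-like cells (50% and 49.0% of MPC-like cells unthinned). No macrophage-like cell kept one, the class that should lack the gene.

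Against the mean of the other classes, endothelial-like cells were higher for 7 of the 26 genes tested, beside 19% of all 12609 genes, and lower for 5, beside 9.74%. Col4a2 (adjusted p = 4e-14, edgeR quasi-likelihood test with Benjamini-Hochberg adjustment over all genes, as for every adjusted p below), Col15a1 (1e-12), Col4a1 (2.3e-12) and Col18a1 (8.4e-11) led those that were higher, with the transmembrane collagens Col13a1 and Col23a1 and with Col4a5 after them. The call for Col4a5 (adjusted p = 0.025) rested on the pooled library, with 14.8 against 1.30 CPM in replicate 3. Without the pooled library its difference turned to -1.09 (log2). The 5 that were lower were Col6a1, Col6a2, Col6a3, Col12a1 and Col16a1.

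Endothelial-like and mural-like cells were also compared with each other, since both lie on the vessel basement membrane. Endothelial-like cells were higher for 2 genes, beside 13% of all genes, and lower for 14, beside 15.5% of all genes. The median log2 fold change was -1.61 over the 26 genes (-1.73 with genes at 0 set to their bound) and -0.02 over all genes. The difference for Col4a1 was -0.38 (log2, adjusted p = 0.47) and for Col4a2 -0.29 (adjusted p = 0.29), and neither passed the threshold. Col15a1 was higher in endothelial-like cells (1.69 ± 0.24, log2 fold change ± SE, adjusted p = 2.3e-05), at 578 and 455 CPM against 145 and 157. Col18a1, the chain that carries the endostatin fragment, was lower (-1.49 ± 0.25, adjusted p = 0.00022), at 549 and 479 CPM against 1426 and 1331. The 2 multiplexins thus differed in opposite directions between the vessel classes, and neither pair of values overlapped. The ratio of Col18a1 to Col15a1 UMIs was 9.81 and 8.48 in mural-like cells, 4.91 and 4.78 in Schwann-like cells, 0.950 and 1.05 in endothelial-like cells and 0.275 and 0.493 in fibroblast-like cells. DESeq2 called 9 of the 26 genes lower, beside 1808 of all 12609 genes.

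**Figure D2:**
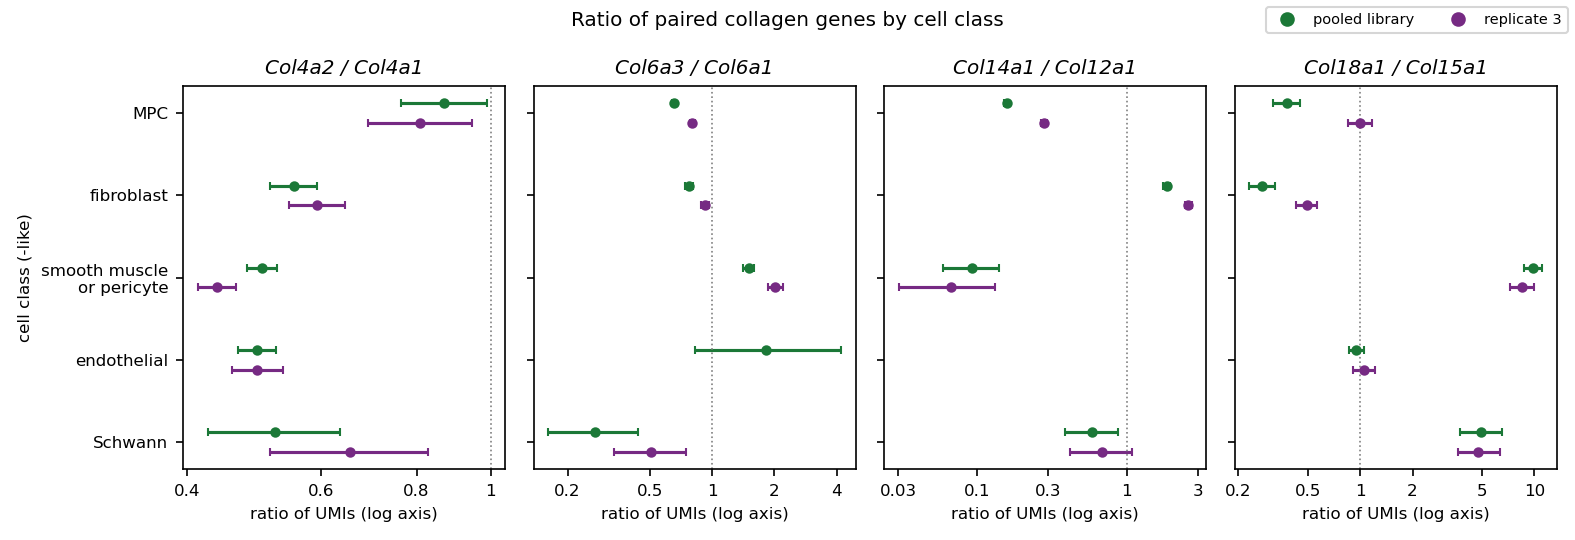
Ratio of the UMIs of 1 chain to another (log axis) in the cell classes, pooled library and replicate 3, with 95% counting intervals, for Col4a2 to Col4a1, Col6a3 to Col6a1, Col14a1 to Col12a1 and Col18a1 to Col15a1. The Col4a2 to Col4a1 ratio is higher in MPC-like (0.868 and 0.808) than in fibroblast-like cells, Col6a3 to Col6a1 is higher in mural-like cells (1.5 and 2.02) than in MPC-like and fibroblast-like cells, and Col14a1 to Col12a1 is higher in fibroblast-like (1.85 and 2.57) than in MPC-like cells; wide intervals mark classes with few UMIs.

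The ratio of Col4a2 to Col4a1 UMIs depends on the assay and is compared only between classes. It was 0.494 and 0.495 in endothelial-like cells, 0.502 and 0.438 in mural-like cells, 0.522 and 0.654 in Schwann-like cells and 0.552 and 0.593 in fibroblast-like cells. In MPC-like cells, where both chains were low, it was 0.868 (95% counting interval 0.763 to 0.988) and 0.808 (0.690 to 0.944), above the interval of fibroblast-like cells in both libraries. The fibroblast-like level was not spread evenly over cells, as the cell with the most Col4a1 UMIs in the pooled library, 444, was in that class. The 13 endothelial markers summed to 129 and 117 CPM in fibroblast-like cells, with 12 and 10 of the 13 detected, against 8562 and 9391 CPM in endothelial-like cells, and their part in the Col4a1 level was not tested. The 13 mural markers summed to 556 and 380 CPM in fibroblast-like cells and to 1717 and 2067 CPM in MPC-like cells, and their part in the Col4a1 level was not tested either.

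Partners of collagen IV in the basement membrane were read from a list of 20 genes, laminin chains, nidogens, perlecan, agrin, peroxidasin and others, of which 15 passed the filter in cells. Against the other classes 13 of the 15 were higher in endothelial-like cells, 12 in mural-like, 11 in Schwann-like, 10 in MPC-like and 9 in fibroblast-like cells, beside 19%, 22.1%, 14%, 31.2% and 29.8% of all genes, and none was lower in these classes. Between endothelial-like and mural-like cells 3 were higher, beside 13% of all genes, and 3 lower, beside 15.5%. Hspg2, which encodes perlecan, was higher in endothelial-like cells (1.73, log2), as was Npnt, which encodes nephronectin (1.86). The laminin chain Lamb2 was lower (-1.56), as was Lama2, with 4 and 0 UMIs against 84 and 36. In MPC-like against fibroblast-like cells 6 of the 15 were lower, beside 9.64% of all genes, and none was higher, beside 5.32%. Those named by the largest change were Npnt (1 UMI in each library against 14 and 3), Nid2 (-2.06 ± 0.25), Lama2 (-1.86 ± 0.24) and Nid1 (-1.15 ± 0.21), so the nidogens that link laminin to collagen IV were lower where Col4a1 and Col4a2 were lower.

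The minor collagen IV chains, which replace the principal ones in specialised basement membranes, gave low counts. Col4a5 was highest in mural-like cells, at 35.2 and 23.6 CPM. Within that class it lay in the cluster led by the smooth muscle genes Myh11, Acta2 and Cnn1, with 54 UMIs in 20 cells and 25 UMIs in 7 cells, or 123 and 136 CPM, against 15 and 3 UMIs in the 76 and 46 cells of the cluster led by the pericyte genes Rgs5, Kcnj8 and Abcc9. Col4a6, the neighbour of Col4a5, had 9 and 1 UMIs in the smooth muscle cluster and 1 and 1 in the pericyte cluster. Col4a4 was highest in fibroblast-like cells, at 17.8 and 11.9 CPM, and was lower in MPC-like cells (-3.04 ± 0.50, adjusted p = 0.00046). Col4a3, its neighbour, had 21 and 11 UMIs in fibroblast-like cells and at most 2 in any other class of either library.

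Collagen VIII, a short-chain network collagen of vessel walls and growing matrix, was highest in MPC-like cells. Col8a1 had 441 and 476 CPM there and 130 and 201 CPM in fibroblast-like cells, and was higher in MPC-like cells (1.46 ± 0.37, adjusted p = 0.013). Col8a2 had 140 and 92.0 CPM against 38.2 and 23.3 CPM (1.89 ± 0.23, adjusted p = 4.3e-05). Neither chain overlapped between these 2 classes. In Schwann-like cells the libraries disagreed on Col8a1, with 15.9 and 170 CPM. Mural-like cells had Col8a1 at 97.9 and 59.1 CPM with almost no Col8a2, 0 Col8a2 UMIs beside 192 Col8a1 UMIs in the pooled library and 1 beside 70 in replicate 3.

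Collagen VI is made from the Col6a1 and Col6a2 chains with 1 of 4 long chains, Col6a3, Col6a4, Col6a5 or Col6a6. The 3 common chains were highest or near highest in MPC-like cells and nearly absent from endothelial-like cells. Col6a1 (chromosome 10, 76708792 to 76726168) had 2229 and 1923 CPM in MPC-like cells, 1136 and 1321 in fibroblast-like cells, 816 and 739 in mural-like cells, 258 and 232 in Schwann-like cells and 7.42 and 5.22 in endothelial-like cells. It was higher in MPC-like than in fibroblast-like cells (0.72 ± 0.16, adjusted p = 0.0040). Col6a2 was at 1285 and 1220 CPM against 679 and 901 (0.65, adjusted p = 0.063) and Col6a3 at 1454 and 1543 CPM against 879 and 1221 (0.50, adjusted p = 0.0998), and these did not pass the threshold, although the MPC-like values were the higher ones in both libraries. Against mural-like cells, endothelial-like cells were lower for Col6a1 (-6.95 ± 0.25, adjusted p = 1.1e-11) and Col6a3 (-6.87 ± 0.29), and Col6a2 had 4 UMIs and 1 UMI in endothelial-like cells.

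The balance of collagen VI chains differed between classes. Col6a3 to Col6a1 was 1.5 (95% counting interval 1.41 to 1.60) and 2.02 (1.86 to 2.20) in mural-like cells, 0.773 and 0.924 in fibroblast-like cells, 0.652 and 0.803 in MPC-like cells and 0.272 and 0.506 in Schwann-like cells. Among these 4 classes the mural-like ratio was the highest in both libraries. Endothelial-like cells of the pooled library had 20 Col6a3 and 11 Col6a1 UMIs, a ratio of 1.82 with a wide interval (0.830 to 4.20). Col6a2 to Col6a1 varied less, from 0.576 in MPC-like cells of the pooled library to 0.829 in mural-like cells of replicate 3, and was 0.333 and 0.304 in Schwann-like cells.

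The alternative long chains were counted mainly in mural-like and fibroblast-like cells. Col6a5 had 55.6 and 26.2 CPM in mural-like, 24.6 and 5.95 CPM in fibroblast-like and 0.116 and 1.08 CPM in MPC-like cells. Col6a6 had 17.9 and 18.6 CPM, 11.2 and 16.8 CPM, and 0.348 and 1.75 CPM in the same classes. Col6a4 had 10.2 and 14.4 CPM in mural-like cells, 1.22 and 0.812 CPM in fibroblast-like cells and 0.116 and 0.270 CPM in MPC-like cells. The 3 genes were thus highest in mural-like cells in both libraries. Within that class they were in the pericyte cluster, where Col6a5 had 109 and 31 UMIs, Col6a6 35 and 22, and Col6a4 20 and 16, while the smooth muscle cluster had 0 and 0, 0 and 0, and 0 and 1. That cluster held fewer UMIs in all, and Col6a1 was also lower in it, at 240 and 185 CPM against 982 and 841 CPM. The fibroblast-like level of Col6a5 in the pooled library came partly from 1 cell, which held 52 of the library's 214 Col6a5 UMIs.

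Against the other classes mural-like cells were higher for 16 of the 26 genes, beside 22.1% of all genes. These were Col6a1 to Col6a6, Col4a1, Col4a2, Col4a5, Col15a1, Col18a1, Col12a1, Col16a1, Col8a1, Col13a1 and Col28a1, with Col6a3 leading (adjusted p = 7.8e-15). MPC-like cells were higher for 15, beside 31.2% of all genes, and fibroblast-like cells for 20, beside 29.8%. The leukocyte classes pull the mean of the other classes down, since they hold almost no collagen. Macrophage-like cells were lower for 7 of the 26, beside 13.3% of all genes, T or NK-like cells for 8, beside 15.3%, and dendritic-like cells for 9, beside 9.76%, and none of the 26 was higher in any of the 3.

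MPC-like cells were next compared with fibroblast-like cells directly, which asks how the non-fibrillar matrix of the progenitors differs from that of the neighbouring connective tissue cells. Of the 26 genes 8 were higher, beside 5.32% of all genes, and 9 were lower, beside 9.64% of all genes, and the median log2 fold change was 0.11 over the 26 and -0.01 over all genes. The genes that were higher were the FACIT collagens Col9a1, Col9a3 and Col12a1, both collagen VIII chains, Col6a1, Col7a1 and Col13a1. The genes that were lower were the basement membrane chains Col4a1, Col4a2, Col4a4, Col15a1 and Col18a1, the long collagen VI chains Col6a5 and Col6a6, the FACIT collagen Col14a1 and Col28a1. With DESeq2 4 stayed higher (Col9a3, Col12a1, Col7a1 and Col6a1) and 5 lower (Col4a1, Col4a2, Col4a4, Col14a1 and Col15a1). Of all 12609 genes DESeq2 called 613 higher and 996 lower.

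**Figure D3:**
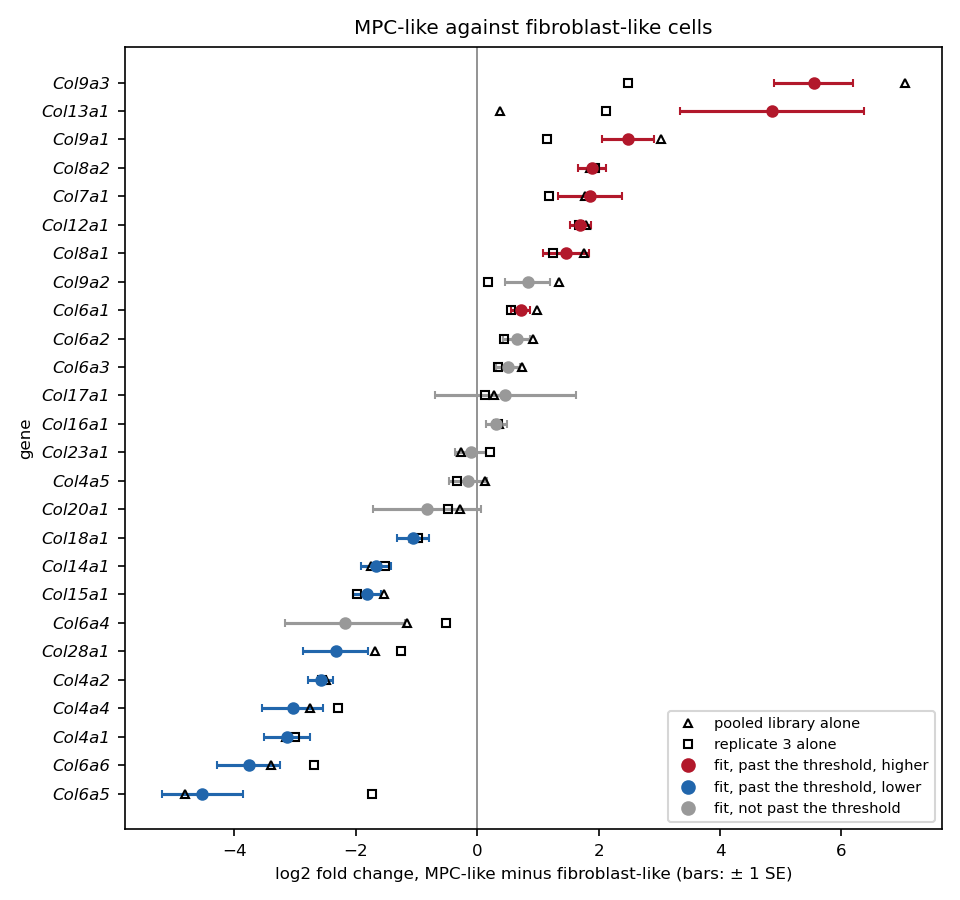
Log2 fold change of MPC-like over fibroblast-like cells for the 26 genes tested, with bars of 1 SE, and the ratio within the pooled library and within replicate 3 as separate symbols; red is higher and blue lower at an adjusted p under 0.05, and grey did not pass. Col9a3, at 5.54, is the farthest to the right among genes with counts in both classes, Col9a1, Col8a2, Col7a1, Col12a1 and Col8a1 follow above 1, and Col4a1, at -3.13, and Col4a4, at -3.04, lie to the left.

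Of the basement membrane chains, Col4a2 was lower in MPC-like cells by -2.57 ± 0.21 (adjusted p = 2.5e-07), Col4a1 by -3.13 ± 0.37 (adjusted p = 1.2e-05) and Col15a1 by -1.81 ± 0.23 (adjusted p = 2.4e-05). Col15a1 stood at 53.9 and 40.6 CPM in MPC-like and at 158 and 165 CPM in fibroblast-like cells. Col18a1 had 20.5 and 40.6 CPM against 43.4 and 81.2 CPM (-1.06 ± 0.27, adjusted p = 0.012), where the MPC-like value of replicate 3 lay just under the fibroblast-like value of the pooled library.

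Col12a1 and Col14a1, which encode the closely related FACIT collagens XII and XIV, differed between MPC-like and fibroblast-like cells in opposite directions. Col12a1 (chromosome 9, 79598991 to 79718831) had 2095 and 1531 CPM in MPC-like and 607 and 482 CPM in fibroblast-like cells (1.70 ± 0.18, adjusted p = 2.9e-06). Col14a1 (chromosome 15, 55307750 to 55520803) had 332 and 430 CPM in MPC-like and 1121 and 1239 CPM in fibroblast-like cells (-1.66 ± 0.25, adjusted p = 0.00014). No value of one class overlapped the other for either gene. Thinned to 2000 UMIs, 94.9% and 88.4% of MPC-like and 46.6% and 36.0% of fibroblast-like cells kept a Col12a1 UMI. The ratio of Col14a1 to Col12a1 UMIs was 0.159 and 0.281 in MPC-like cells, 1.85 and 2.57 in fibroblast-like cells, 0.586 and 0.681 in Schwann-like cells and 0.0935 and 0.0677 in mural-like cells. Col16a1, a FACIT collagen with a wide tissue range, was at 425 and 403 CPM in MPC-like, 334 and 318 CPM in fibroblast-like and 268 and 214 CPM in Schwann-like cells.

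The 3 chains of collagen IX, the FACIT collagen of cartilage, were highest in MPC-like cells, with a wide gap between the libraries. Col9a3 had 262 CPM in the pooled and 24.2 CPM in the replicate 3 library, against 1.22 and 3.52 CPM in fibroblast-like cells (5.54 ± 0.66, adjusted p = 1.1e-05). Col9a1 had 56.7 and 9.04 CPM against 6.33 and 3.52 CPM (2.49 ± 0.43, adjusted p = 0.0011), and Col9a2 had 35.1 and 12 CPM against 13.4 and 10.6 CPM, which did not pass the threshold. Within the pooled library alone the Col9a3 difference was 7.04 and within replicate 3 alone 2.48, and for Col9a1 3.02 and 1.16 (log2 ratios, no test). Most collagen IX UMIs of the MPC-like class in the pooled library came from few cells, and in replicate 3 this held for Col9a3 only. Of the MPC-like cells 24 of 176 and 7 of 147 held at least 5 of 8 cartilage markers (Acan, Sox9, Hapln1, Matn1, Matn3, Cnmd, Snorc and Chad), a rule set after the data were seen. These cells carried 89.4% of the Col9a3, 83.2% of the Col9a1 and 72.6% of the Col9a2 UMIs of the class in the pooled library. In replicate 3 they carried 59.8%, 31.3% and 8.99%. Col9a3 stood at 1760 CPM in them and at 32.2 CPM in the other MPC-like cells of the pooled library, and at 271 and 10.3 CPM in replicate 3. Without these cells 7 genes were higher and 9 lower than in fibroblast-like cells, and the share of all genes was not counted for this fit. Col9a3 still passed (3.01 ± 0.57, adjusted p = 0.0011), Col9a2 was at -0.11 (adjusted p = 0.91) and Col9a1 was no longer tested. Col12a1 did not follow collagen IX, with 2125 CPM in cartilage-marker cells and 2090 CPM in the others of the pooled library, and 1547 and 1530 CPM in replicate 3. Col8a1 went the other way, with 245 against 471 CPM and 296 against 486 CPM. The 8 cartilage markers summed to 1422 and 759 CPM in MPC-like cells, with 7 of 8 detected and Matn1 at 0, and to 235 and 192 CPM in fibroblast-like cells, with Matn1, Snorc and Chad at 0.

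The partners of FACIT collagens and collagen VI on the fibril surface were read from a list of 11 genes, all tested in cells. Of these 10 were higher in MPC-like and 11 in fibroblast-like cells than in the other classes, beside 31.2% and 29.8% of all genes. Between the 2 classes 5 were higher in MPC-like cells, beside 5.32%, and 1 was lower, beside 9.64%. Fmod (3.73, log2), which encodes the tendon proteoglycan fibromodulin, Comp (3.24), which binds collagen IX and collagen XII, and Matn4 (2.61), a matrilin, were higher with Tnc and Thbs4, of which Fmod, Comp, Tnc and Thbs4 also served as markers in naming the MPC-like class. Tnxb (-4.75), which encodes tenascin X, a partner of collagen XIV at the fibril surface, was lower, as Col14a1 was. Of the 11 genes 8 were lower in endothelial-like than in mural-like cells, beside 15.5% of all genes, and none was higher, beside 13%.

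In keratinocyte-like cells 3 of the 26 genes were higher than in the other classes, beside 25.8% of all genes, and 6 were lower, beside 17% of all genes. Col17a1 (chromosome 19, 47646344 to 47692094) had 366 and 158 CPM (adjusted p = 6.6e-12), 698 UMIs in 37 of 73 cells and 242 UMIs in 19 of 55 cells, and at most 5.22 CPM in every other class. Thinned to 2000 UMIs, 29.0% and 20.5% of keratinocyte-like cells kept a Col17a1 UMI, against 1.18% and 0% of endothelial-like cells and no MPC-like cell. Col7a1 had 11.5 and 11.8 CPM, from 22 and 18 UMIs (adjusted p = 1e-05), close to the levels in Schwann-like cells, 9.56 and 5.87 CPM from 3 and 2 UMIs, and above those in MPC-like cells, 5.22 and 5.53 CPM. Most Col7a1 UMIs of the kept cells, 79.9% and 69.8%, were in unnamed cells, which were in no comparison. The unnamed cluster led by Coch and Crabp1 had 186 and 169 CPM. Col4a5 had 13.1 and 7.20 CPM (adjusted p = 0.0019). Col6a1, Col6a2, Col6a3, Col12a1, Col15a1 and Col16a1 were lower.

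These keratinocyte counts rest on the clustering, because at a coarser resolution the keratinocyte-like cluster took in dividing cells (127 and 94 cells) and was higher for 16 genes. It was then higher for 3569 of all 12884 genes. From a list of 7 genes for the attachment of the epidermis, 4 were higher and 1 lower in keratinocyte-like cells, beside 25.8% and 17% of all genes. The integrin genes Itgb4 (35.7 and 22.3 CPM), Itga6 (172 and 81.8 CPM) and Itga3 (13.1 and 9.16 CPM) and the adaptor Fermt1 (32 and 27 UMIs, and 0 UMIs in every other class) were higher, and Plec, which encodes plectin, was lower. The integrins were not particular to this class. Of the 7 genes 6 were higher in endothelial-like and 5 in Schwann-like cells, beside 19% and 14% of all genes. Itgb4 was higher by 3.56 (log2) in keratinocyte-like, 4.13 in endothelial-like and 5.23 in Schwann-like cells. For Itga6 these values were 2.69, 3.80 and 3.73.

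Of the other transmembrane collagens, Col13a1 was counted in vessel cells, at 14.8 and 20.9 CPM in endothelial-like and 13.8 and 33.8 CPM in mural-like cells. One mural-like cell held 36 of the 103 Col13a1 UMIs of replicate 3. MPC-like cells had 2 and 25 UMIs and fibroblast-like cells none in either library (adjusted p = 0.049), so this call rested mainly on replicate 3. Col23a1 was at 47.7 and 25.4 CPM in fibroblast-like, 39.3 and 29.3 CPM in MPC-like and 11.5 and 20.9 CPM in endothelial-like cells. Endothelial-like cells exceeded mural-like cells for it (adjusted p = 0.003), with 17 and 16 UMIs against 2 and 3.

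Schwann-like cells, the glia of peripheral nerve, were higher than the other classes for 15 of the 26 genes, beside 14% of all genes. Col28a1 (chromosome 6, 7997808 to 8192617), a collagen of peripheral nerve, had 398 and 211 CPM from 125 and 72 UMIs, and at most 10.2 CPM in any other class (adjusted p = 2.5e-11). Thinned to 2000 UMIs, 46.7% and 36.4% of Schwann-like cells kept a Col28a1 UMI. Col20a1, a FACIT collagen, had 25.5 and 58.7 CPM from 8 and 20 UMIs and at most 1.51 CPM elsewhere (adjusted p = 5e-06). Col18a1 had 1033 and 884 CPM, between mural-like and endothelial-like cells. Schwann-like cells joined 2 clusters that differed in these genes. The cluster led by Gfra3 and Cdh19, 17 and 13 cells, had Col18a1 at 1394 and 1079 CPM, Col16a1 at 361 and 254 CPM and Col6a1 at 348 and 286 CPM. The cluster led by Mal, a gene of myelinating glia, 13 and 10 cells, had Col18a1 at 47.6 and 46.5 CPM, Col16a1 at 11.9 and 46.5 CPM and Col6a1 at 11.9 and 0 CPM. Col28a1 was found in both clusters, at 240 and 196 CPM in the first and at 833 and 279 CPM in the second, and Col4a1 at 1037 and 587 CPM and at 702 and 310 CPM. The clusters were compared by value only, since few cells stand behind each.

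The sections were read next, to place the same genes in tissue. A Visium spot holds several cells, so fewer cells of a type and less RNA per cell cannot be told apart in it, and the assay reads probes, so its levels are not set beside those of the cells. Spots were clustered into 10 regions without collagen genes. Region 1 (618 and 525 spots) carried Thbs4, Tnn, Tnc, Postn and Scx, from the marker list that named the MPC-like cells. It is called the wound-marker region here. Region 6 (240 and 167) carried keratinocyte markers and region 8 (162 and 135) skeletal muscle markers. The non-fibrillar collagens took 0.813% and 0.691% of the UMIs of A1 and B1. Their summed level was highest in region 4 (11842 and 10696 CPM), followed by region 1 (9181 and 8601), and was 5470 and 3010 CPM in region 6.

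In the wound-marker region 9 of 17 genes were higher than in the other regions, beside 11.7% of all 9410 genes. The median log2 fold change was 0.81 over the 17 and 0.10 over all genes. The 3 common collagen VI chains were higher, Col6a1 by 1.23 ± 0.20 (adjusted p = 4.5e-07), Col6a2 by 1.12 ± 0.22 and Col6a3 by 0.91 ± 0.26. Col6a1, which was also higher in region 4 (below), had 438 and 484 CPM in region 1. It had 241 and 112 CPM in region 6, one of the lower regions for this gene. The vessel-type chains were higher as well, Col18a1 by 0.99 ± 0.21 (adjusted p = 8e-05), Col4a2 by 0.98 ± 0.26, Col4a1 by 0.81 ± 0.21 and Col15a1 by 0.76 ± 0.22, together with the FACIT collagens Col16a1 by 0.99 ± 0.25 and Col12a1 by 0.88 ± 0.24. Region 1 was not the highest region for Col4a1, which had 443 and 353 CPM there and 529 and 400 CPM in region 0. These differences depend on the scaling. Relative log expression factors moved the median of all genes by -0.42 (log2), with medians of 0.38 over the 17 and -0.32 over all genes. They left 5 genes past the threshold, Col6a1, Col6a2, Col18a1, Col16a1 and Col4a2, beside 256 of all 9410 genes. DESeq2 left Col4a2 alone, beside 119 of all 9410 genes, where the main fit had 1101. Beside the same 11.7% of all genes, of 13 basement membrane partners tested 5 were higher and 1 lower, with the largest changes for Lamb1 (1.26), Pxdn (0.91), Nid2 (0.76) and Lamc3 (-1.63), and of the 11 fibril surface genes 7 were higher, among them Thbs4 (2.03), Fn1 (1.37), Tnc (1.28) and Bgn (1.28). Thbs4 and Tnc are markers by which the region was named.

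**Figure D4:**
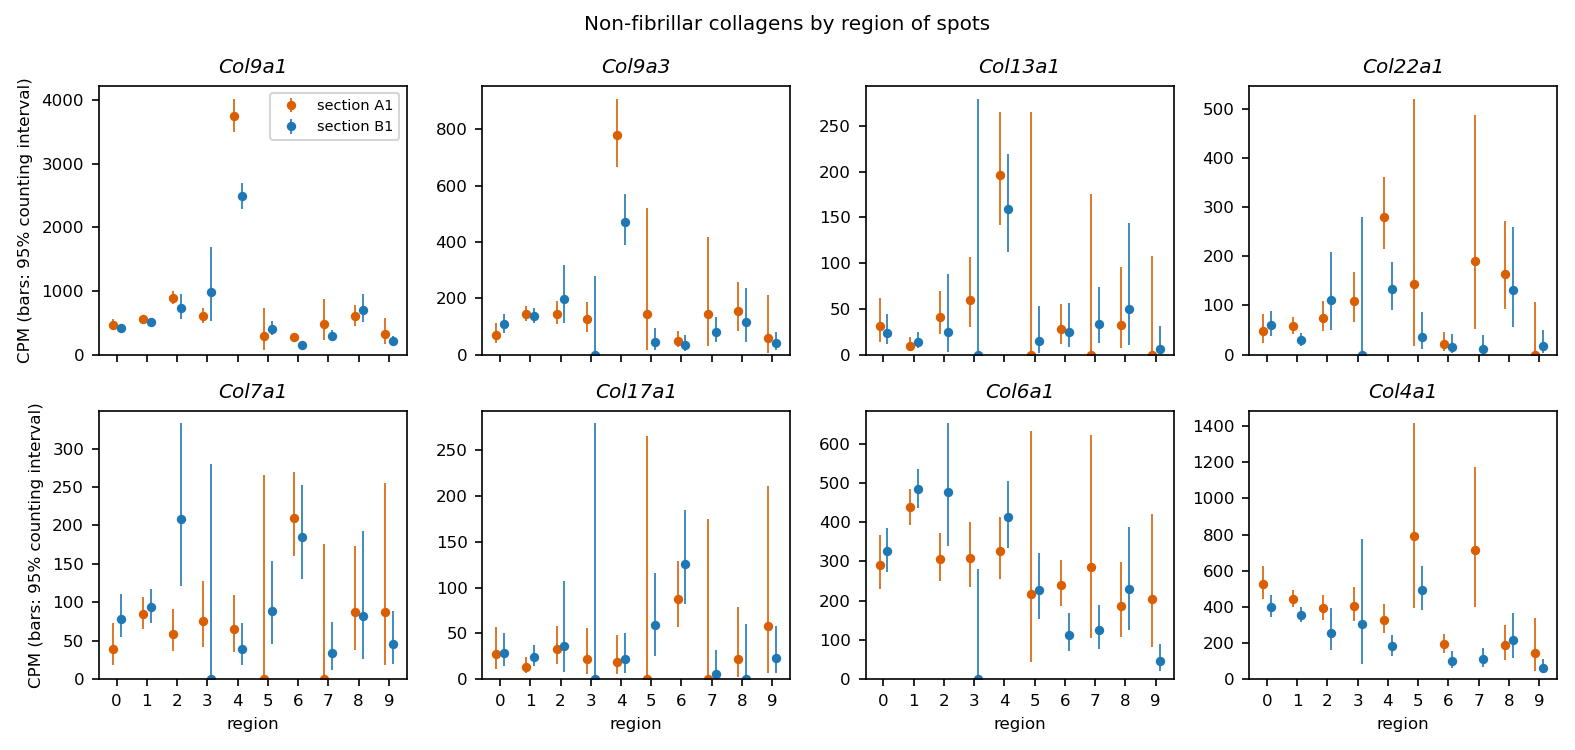
Level of 8 genes in CPM, with 95% counting intervals, in the 10 regions of sections A1 and B1. Col9a1 (3756 and 2493 CPM), Col9a3 and Col13a1 peak in region 4, Col7a1 and Col17a1 are raised in the keratinocyte-marker region 6, and Col6a1 varies less between regions.

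Region 4 (303 and 300 spots) was not named from the markers and was led by Dmp1, Alpl, Phospho1, Bglap, Mmp9 and Comp, genes of mineralised tissue and cartilage. It was picked for comparison after its levels were seen. Of the 17 genes 8 were higher than in the other regions, beside 3.37% of all genes, with medians of 0.85 over the 17 and 0.07 over all genes. Col9a1 (chromosome 1, 24177610 to 24252684) had 3756 and 2493 CPM and between 155 and 986 CPM in each other region (2.95 ± 0.22, adjusted p = 1.2e-39). Col9a3 had 781 and 473 CPM (2.92 ± 0.22, adjusted p = 4.5e-37) and Col9a2 182 and 202 CPM (2.36 ± 0.30, adjusted p = 2.7e-12). All 3 collagen IX chains were therefore higher there in both sections. Col13a1 had 196 and 159 CPM (3.05 ± 0.34, adjusted p = 1.1e-16) and the FACIT collagen Col22a1 281 and 133 CPM (2.16 ± 0.29, adjusted p = 6.7e-11). Col16a1, Col6a2 and Col6a1 were higher by 1.15, 0.89 and 0.85. In region 4 the 8 cartilage markers summed to 1464 and 1526 CPM. The markers among its leading genes were mostly those of bone, with 3 (Dmp1, Alpl and Bglap), and of osteoclasts, with 2.

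Spots were also summed by their markers. Cartilage-marker spots had at least 3 UMIs of the cartilage markers and more of these than of bone markers, and bone-marker spots the reverse. The bone list holds Spp1, which also led region 9, a region with neutrophil markers. How many bone-marker spots lay in region 9 was not counted. Cartilage-marker spots, 72 in A1 and 89 in B1, of which 25 and 29 were in region 4, had Col9a1 at 4772 and 3139 CPM. Bone-marker spots, 121 and 268, of which 76 and 72 were in region 4, had it at 1237 and 379 CPM, and the remaining spots at 623 and 459 CPM. Col9a3 followed, with 1080 and 717 CPM, 146 and 58.0 CPM, and 132 and 102 CPM in the same order. Col13a1 had 215 and 108 CPM in bone-marker spots, 26.1 and 0 CPM in cartilage-marker spots and 32.6 and 25.9 CPM in the rest. Col22a1 was also higher in bone-marker spots, at 352 and 81.2 CPM, than in cartilage-marker spots, at 34.8 and 25.2 CPM, and the rest, at 72.1 and 44.4 CPM. These spots were chosen by marker genes after the data were seen, and their values are a description.

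**Figure D5:**
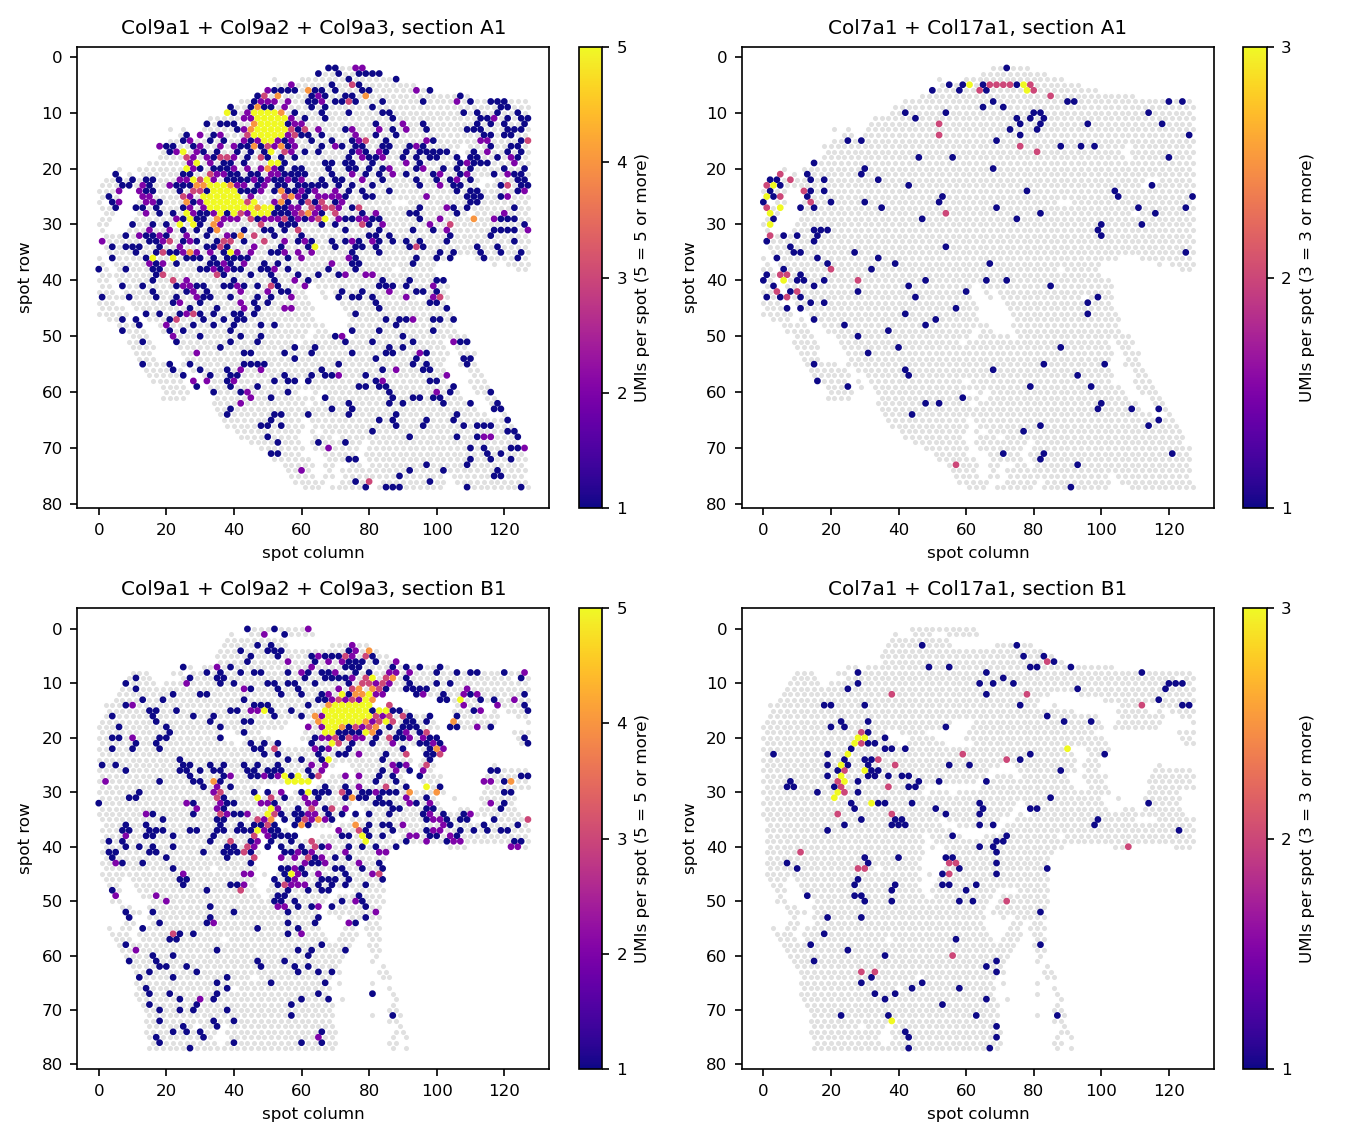
Maps of sections A1 and B1 by spot row and column, coloured by the UMIs per spot of Col9a1, Col9a2 and Col9a3 together (upper limit 5 or more) and of Col7a1 and Col17a1 together (upper limit 3 or more). Spots with many collagen IX UMIs lie in patches. At least 1 collagen IX UMI was found in 59.7% and 45.7% of region 4 spots and 45.5% and 49.9% of region 1 spots. In region 6 it was found in 30% and 16.2% of spots. Col7a1 or Col17a1 was found in 22.5% and 24.6% of region 6 spots and 10.2% and 13.7% of region 1 spots.

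The authors' deposited score of spatial autocorrelation, Moran's I, which is near 0 for a gene scattered at random, ranked Col9a1 6th in A1 and 30th in B1 among all genes, at 0.268 and 0.256. Col9a3 followed, at 0.175 and 0.170 (ranks 22 and 72). Col4a2 had 0.0813 and 0.150, Col16a1 0.0761 and 0.142 and Col6a3 0.0652 and 0.122.

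In the keratinocyte-marker region 2 of 17 genes were higher than in the other regions, beside 9.04% of all genes, and 4 were lower, beside 1.45% of all genes. The median was -0.39 over the 17 and -0.01 over all genes. Col7a1 had 209 and 184 CPM (1.78 ± 0.28, adjusted p = 7.1e-09) and Col17a1 87.2 and 126 CPM (2.47 ± 0.39, adjusted p = 1.6e-08). This pair was also higher in keratinocyte-like cells, but most Col7a1 UMIs of the cells were in unnamed cells outside that class. For Col7a1 region 2, which carried both keratinocyte and muscle markers, reached 59.1 and 208 CPM, and overlapped region 6 in B1. Col9a1 (-1.28 ± 0.32), Col9a3 (-1.34 ± 0.39), Col22a1 (-1.68 ± 0.52) and Col12a1 (-1.26 ± 0.43) were lower. With a finer clustering of the spots none of the 17 was higher in the keratinocyte-marker region (221 and 89 spots), beside 174 of all 9410 genes. At that resolution another region (60 and 85 spots) also carried 6 keratinocyte markers and was part of the mean compared against. The laminin chains Lamb3 and Lama3 of the epidermal basement membrane were higher with this pair, by 2.73 and 2.20, while Nid2 was lower by -1.47, and of 6 attachment genes 4 were higher, beside 9.04% of all genes, Itga6 (1.57), Itga3 (1.54), Itgb4 (1.24) and Plec (0.83).

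In the skeletal muscle-marker region no gene of the 17 was higher, beside 1.16% of all genes, or lower, beside 0.0213%. Col22a1, a collagen of the junction between muscle and tendon, had 164 and 132 CPM there, a difference of 1.37 ± 0.45 from the other regions that did not pass the threshold (adjusted p = 0.13). It was past the threshold under 3 other clusterings of the spots.

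The 8 genes with under 100 UMIs in both assays are given by their UMIs in the pooled library, replicate 3, A1 and B1. Col4a3 had 23, 17, 8 and 37, Col4a6 28, 13, 3 and 2, Col6a4 30, 31, 6 and 19, and Col10a1, the hypertrophic cartilage collagen, 38, 0, 9 and 26. Col19a1 had 2, 0, 4 and 2, Col20a1 26, 38, 11 and 11, Col25a1 20, 10, 12 and 13, and Col26a1 14, 55, 2 and 3. Single cells weigh heavily in these counts. All 38 Col10a1 UMIs of the pooled library were in 1 MPC-like cell, and 31 Col26a1 UMIs of replicate 3 were in 1 dividing cell. The same holds for Col22a1 in the cells, where 2 cells of replicate 3 held 138 of 179 UMIs.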

How the data were processed

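Cells of 2 scRNA-seq libraries and spots of 2 Visium sections were analysed. The cell files hold raw UMI counts that the authors made with Cell Ranger 5.0.1 against mm10, one per gene and barcode. The section files hold raw UMI counts for each gene in each spot, made by the authors with Space Ranger 2.0.1, and a Moran's I score per gene, used as deposited. The p-values and adjusted p-values beside that score were not used. The submitters' processing notes name mm10 for the sections too.

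Cells were kept with at least 200 genes, no more than 20% mitochondrial UMIs, 5% or more ribosomal UMIs, and UMIs and genes up to the 99th percentile. Of 2303 and 1266 barcodes, 806 and 305 had under 200 genes. No doublet caller was run, and the libraries shared 0 barcodes. Spots had at least 100 UMIs. Seurat 5.3.0 integrated the samples (2000 variable genes, 30 principal components for cells and 20 for spots, resolution 0.8) with the 44 collagen genes left out. A cluster was named with at least 3 markers among its 50 leading genes and 2 more than of another class. Hif1a had 10232 and 6829 UMIs in the libraries, but the 3′ tag lies outside the deleted part and checks no genotype.

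Sums of counts were made for classes and regions that had 20 or more members in both samples. They held 313683 to 8628830 UMIs for cells and 13190 to 817893 for spots. edgeR 4.0.16 (R 4.3.3) fitted TMM-normalized sums by quasi-likelihood, blocked on the library or the section, since classes of a library come from the same mice, with Benjamini-Hochberg adjustment over all genes tested and a threshold of 0.05. The mean of the other classes was taken with equal weights on the log scale. Where a group had almost no counts, levels or UMIs are given in place of a fold change. Intervals are 95% and cover counting error only. The fit was tested on simulated data. Figures and promoters were handled in Python 3.11.15. Alternatives were DESeq2 1.42.0, relative log expression factors, no filter on low counts, no block, coarser and finer clusters, clusters with collagen genes kept, and leaving out each sample.

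The members, marker lists and partner lists were chosen with earlier results of these data known. Members with at least 100 UMIs in the cells or spots are described, the others are named with their totals, and from each partner list up to 4 genes are named, those past the threshold that moved one way in both samples and changed most. Tnc, Thbs4 and Plec are named beyond that where they complete a small count. A result that this rule would name is not reported here.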

Additional observations from a re-analysis of the deposited data

Results flagged for a closer look

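The values below come from cells that were in no named class, clusters 10 and 12, and so in no comparison above. In each the level was above the highest named class in the same library. Cluster 12 (35 and 24 cells in the pooled library and replicate 3) was led by Coch, Crabp1, Wif1 and Lrrc15, and cluster 10 (54 and 39 cells) by genes of dividing cells.

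Col7a1, the anchoring fibril collagen, had 186 CPM (169 UMIs in 26 cells) and 169 CPM (127 UMIs in 17 cells) in cluster 12, against 11.5 and 11.8 CPM in keratinocyte-like cells. In cluster 10 it had 107 and 35.3 CPM, and 146 of the UMIs behind the first value were in 1 cell. Col6a3 had 2009 and 1593 CPM in cluster 12, against 1454 and 1543 CPM in MPC-like cells, and was found in all of its cells. Col23a1 had 48.3 and 106 CPM in cluster 12, where the first value lay close to the 47.7 CPM of fibroblast-like cells. Col8a1 had 476 and 527 CPM in cluster 10, in 20 and 17 cells, against 441 and 476 CPM in MPC-like cells.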

How the results depend on the processing

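With DESeq2 in place of edgeR the count of genes higher in MPC-like than in fibroblast-like cells went from 8 to 4 and of those lower from 9 to 5, the count lower in endothelial-like than in mural-like cells from 14 to 9, and the count higher in the wound-marker region from 9 to 1. Over all 12609 genes in cells the first 3 counts went from 671 to 613, from 1215 to 996 and from 1951 to 1808. Over all 9410 genes in spots the last went from 1101 to 119. Relative log expression factors left 5 in the wound-marker region, beside 256 of all 9410 genes. They shifted the median of all genes there by -0.42 (log2), by -0.30 in region 4 and by -0.16 in the keratinocyte-marker region, so directions in the sections are relative to TMM scaling. Coarser clusters gave 16 genes higher in the keratinocyte-like cluster in place of 3, as that cluster then held dividing cells, and turned Col6a1 (3.22), Col6a2 (3.14), Col6a3 (3.21), Col12a1 (3.32), Col15a1 (0.21) and Col16a1 (2.06) to higher, and Col6a3 in Schwann-like cells to -0.13. Of all 12884 genes 3569 were then higher in the keratinocyte-like cluster. Finer clusters, where a second region with keratinocyte markers was among those compared against, left 0 in the keratinocyte-marker region in place of 2. Of all 9410 genes they left 174 higher there. Coarser clusters, finer clusters and clusters with the collagen genes kept each gave 1 gene, Col22a1, higher in the skeletal muscle-marker region in place of 0. In the same order, 133 of 6079, 137 of 9410 and 142 of 10103 genes were higher there.

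Without the replicate block, the pairing of classes by library, 15 genes were higher in MPC-like, 21 in fibroblast-like, 7 in endothelial-like, 16 in mural-like and 3 in keratinocyte-like cells, 7 were higher and 9 lower in MPC-like than in fibroblast-like cells, and 2 were higher and 13 lower in endothelial-like than in mural-like cells. In the same order the counts over all 12609 genes were 3877, 3745, 2426, 2768 and 3241, then 593 and 1118, and 1606 and 1911. Leaving out a sample leaves 1 sum a class and no spread, so these values carry no test. The genes called kept their direction when either sample was left out, except Col4a5 in endothelial-like cells (-1.09 without the pooled library and 1.51 without replicate 3), where 6 to 7 genes kept it. Their sizes were compared too, but the values with a sample left out are plain log2 ratios and not fits. Past 1 SE of the fit on both samples moved 82 cell values without the pooled library, while 37 stayed and 1 reversed. Without replicate 3, 74 moved and 46 stayed. Of the spot values 13 moved and 10 stayed without A1, and 10 moved and 13 stayed without B1. The 143 values in all cover cells and spots together. For the partner gene Itga6 in dendritic-like cells the fit gave -9.99. Its ratios were -5.33 without the pooled library and -6.33 without replicate 3. How far the change of estimate made the moves was not tested. The other changes in the counts were within 1.5 times. Of the values of single genes, DESeq2 took 36 past the threshold to the other side, and the cause was not tested. With DESeq2 the median of all genes in the wound-marker region was -0.35 (log2), against 0.10 with edgeR. Depth limits the genes at a few UMIs per class, and in the spots the medians of 460 and 518 UMIs keep 16 of the 33 genes out of any test.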
